A study of Diplotaxodon limnothrissa and Petrotilapia genalutea and Rhamphochromis longiceps with 60 samples.

Results

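The genes described here encode complement and coagulation proteins of the blood plasma, with the inhibitors that hold them in check. They were taken by symbol from a list of 42 genes, and 18 of the 42 were found under their own symbol among the 29676 genes of the liver and muscle expression tables. Total RNA, depleted of ribosomal RNA, had been sequenced from homogenised liver and skeletal muscle of wild-caught adult males of 4 cichlid species of Lake Malawi. The species were *Diplotaxodon limnothrissa* (DL), a predator of deep open water, *Rhamphochromis longiceps* (RL), a fish eater of open water, and the algae grazers of rocky shores *Petrotilapia genalutea* (PG) and *Maylandia zebra* (MZ). The liver table holds 3 DL, 2 RL, 3 PG and 3 MZ livers, and the muscle table holds 3 muscles of each species. Another RL liver and the tank-reared *Pundamilia nyererei* that the sample list names were not analysed here. Each library comes from a single wild fish, so species, habitat, diet and the condition of the fish at capture cannot be told apart. Each habitat is held by 2 species, and PG and MZ both belong to the Mbuna group. Habitat and shared ancestry thus cannot be told apart either. Values are TPM, a transcript abundance corrected for transcript length, with a fixed sum per library. TPM keeps no read depth, and the read counts that the study lists for its RNA libraries were not used here. The precision of low values was thus not assessed. Reads of every species were assigned to transcripts of MZ, and what that does to the values of the other species was not tested. In whole tissue, fewer cells of a type and less RNA per cell cannot be told apart.

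Complement is a chain of plasma proteases and binding proteins that tags microbes and ends in a pore, the membrane attack complex, in their membranes. Coagulation is a second chain of proteases that ends with thrombin cutting fibrinogen into fibrin, and antithrombin, heparin cofactor II and the protein C pathway restrain it. In vertebrates the hepatocyte makes most of these proteins and secretes them into the blood. The roles given below are those known from mammals.

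Of the genes that start complement, *masp1* and *masp2* were found, and *c1r*, *c1s*, *c2*, *c4* and *cfd* were not. The central and terminal components *c5*, *c6*, *c8a*, *c8b*, *c8g* and *c9* were found, without *c3* and *c7*. The complement regulators *cfi* and *vtn* were found, without *cfp* and *serping1*. Among clotting factors *f5* and *vwf* were found, and *f2*, *f7*, *f8*, *f9*, *f10*, *f13b* and *kng1* were not. The fibrinogen chains *fgb* and *fgg* were found without *fga*, and the clotting inhibitors *serpinc1*, *serpind1*, *proc* and *pros1* without *serpina10* and *tfpi*. No gene of fibrinolysis (*plg*, *serpinf2*, *cpb2*) and no fetuin (*ahsg*, *fetub*) stood under its symbol. Of the 29676 identifiers in the tables, 19697 are LOC numbers with no symbol, and the 24 genes without a match were not analysed here.

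The levels spanned more than 4 orders of magnitude in liver. The fibrinogen chains led with a mean of 8244 TPM for *fgb* and 8001 TPM for *fgg* over the 11 livers, ranks 21 and 23 of all genes. These chains made up between 62.8% and 82.9% of the summed TPM of the 18 genes in a liver. Next came *serpinc1* (antithrombin) at 949 TPM, *c9* at 871 TPM, *serpind1* (heparin cofactor II) at 797 TPM and *c8g* at 686 TPM. The middle of the range held *cfi* (500 TPM), *c5* (378 TPM), *c8a* (285 TPM), *c8b* (275 TPM), *proc* (239 TPM) and *f5* (209.8 TPM). Further down stood *vtn*, the gene of vitronectin, at 71.5 TPM and *pros1*, the gene of protein S, at 56.3 TPM. The proteases that start the lectin pathway were low, with 22.6 TPM for *masp2* and 14.8 TPM for *masp1*. At the bottom were *c6* with 9.70 TPM and *vwf*, the gene of von Willebrand factor, with 0.304 TPM. In all, 12 of the 18 genes were among the 500 genes with the highest mean TPM in liver, and none was listed at 0 TPM in any liver.

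**Figure D1:**
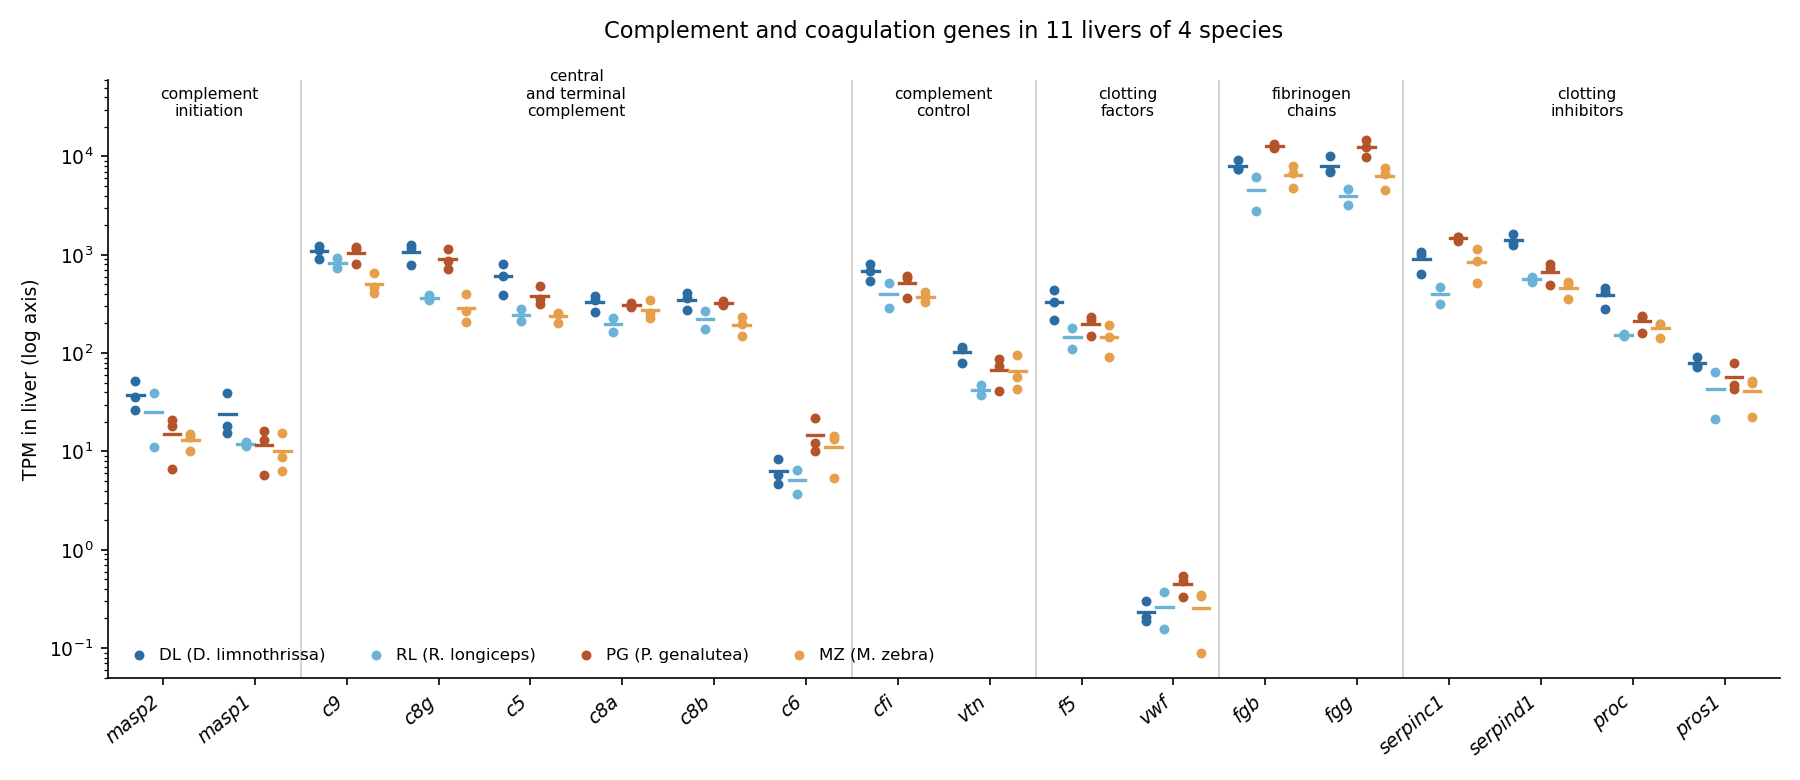
TPM of the 18 genes in each of the 11 livers, on a log axis, with genes grouped by role along the horizontal axis. Points are livers, coloured by species, and short lines are species means. The fibrinogen chains lie at 2792 TPM or more in every liver and *vwf* at 0.547 TPM or less, and the highest species mean belongs to DL for 13 of the 17 genes other than *vwf* (10 after quantile normalisation). The share of all genes with their highest mean in DL was not counted.

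Summed over the 18 genes, these transcripts took 2.35 ± 0.338% of the TPM of a DL liver, 1.21 ± 0.424% in RL, 3.12 ± 0.212% in PG and 1.65 ± 0.383% in MZ (SD, n = 3, 2, 3 and 3). PG livers, at 2.89% to 3.32%, lay above all others, and the 2 RL livers, at 0.907% and 1.51%, overlapped with the MZ range of 1.21% to 1.93%. Without the fibrinogen chains the order differed, with 7387 ± 1335 TPM in DL, 3646 ± 768 TPM in RL, 6204 ± 835 TPM in PG and 3643 ± 884 TPM in MZ. DL and PG livers then overlapped, and every liver of these species lay above every RL and MZ liver. Livers of a species varied from each other by a median coefficient of variation of 22.9% in DL, 26.7% in RL, 23.1% in PG and 25.1% in MZ over the 17 genes that passed the filter on low values. The widest spreads were those of *masp2* in RL (79.4%) and *masp1* in DL (53.5%).

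Livers and muscles were compared to see how far these genes are liver genes in each species. In every liver 16 of the 18 genes lay above every muscle, and the median ratio of liver to muscle means over the 18 was 1658. The share of all genes whose livers lay wholly above the muscles was not counted. Muscles held between 0.754 and 4.43 TPM of *fgb*, and *masp2* was listed at 0 TPM in 11 of 12 muscles. With limma on log2(TPM + 1) over all 23 libraries, 16 of 18 genes passed an adjusted p under 0.01 as higher in liver in each species. Over all genes tested, the share higher in liver was 12.2% in DL, 10.4% in RL, 11.2% in PG and 8.59% in MZ. Of the 16, *masp2*, *c5*, *c8a*, *c8b*, *c8g*, *c9*, *cfi*, *serpind1* and *proc* did not pass the filter on low values in the muscles. They entered this fit only through the livers, where they are high. Their calls and the count of 16 are thus a description and support nothing. The 2 genes not called higher in liver were *c6* and *vwf*. The gene *c6*, whose protein is a component of the membrane attack complex, averaged 9.70 ± 5.48 TPM in liver and 10.5 ± 3.99 TPM in muscle (SD, n = 11 and 12), with overlapping ranges and adjusted p between 0.190 and 0.759 over the species. The gene *vwf*, which endothelial cells express in mammals, averaged 0.304 ± 0.138 TPM in liver and 0.712 ± 0.453 TPM in muscle (SD, n = 11 and 12). It was called lower in liver only in PG, with a log2 fold change of -0.72 (SE 0.17, adjusted p 0.00166). It reached 1 TPM in the 3 PG muscles alone and so entered the fit only through the group in which it was then higher, which makes this call no support for a difference. The test of whether this step differs between species is given with the interaction. The step to muscle was smallest among the 16 for *pros1*, at 11.2 times, and for *masp1*, at 21.2 times.

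**Figure D2:**
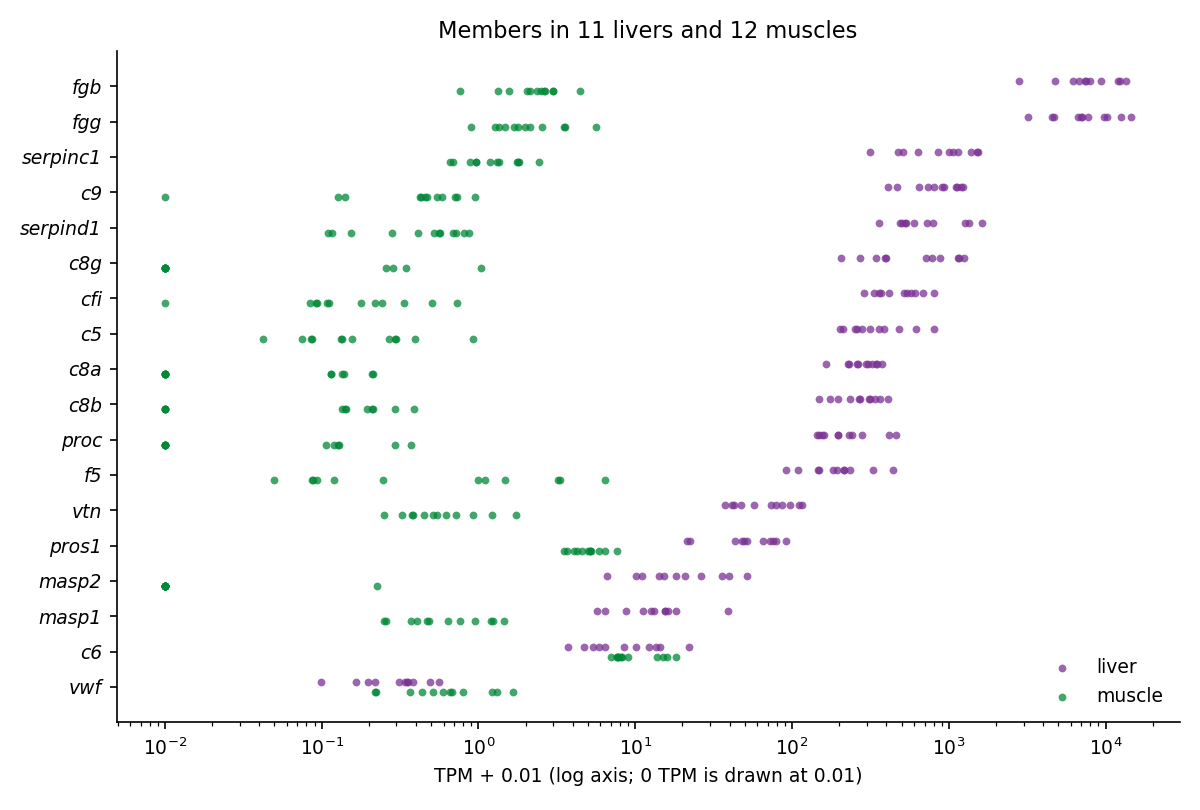
TPM of the 18 genes in 11 livers (purple) and 12 muscles (green), on a log axis after adding 0.01 TPM, ordered by mean level in liver. Every point is a library. The tissues are apart for 16 genes and overlap for *c6* and *vwf*. The share of all genes with the tissues apart was not counted.

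Other cell types were followed through marker lists. Of 35 hepatocyte genes outside the list 15 were found, and their sum was 13758 to 25665 TPM in DL livers, 6661 to 13158 TPM in RL, 12840 to 14064 TPM in PG and 6996 to 9628 TPM in MZ, against 149 to 550 TPM in the muscles. Of these genes *cps1* went the other way, with 0 to 0.492 TPM in livers and 6.55 to 55.3 TPM in muscles. *cebpa* and *fabp1* overlapped between the tissues, and the rest lay higher in every liver than in any muscle. In muscles *rbp4* alone held 71.8 to 497 TPM. Of 13 blood and immune genes 8 were found, with 39.4 to 122 TPM in DL livers, 46.6 to 53.9 TPM in RL, 201 to 284 TPM in PG and 170 to 464 TPM in MZ. Within this sum *cd74* held 33.2 to 399 TPM over the livers, and the next highest, *lcp1*, reached at most 17.2 TPM. The hepatocyte and the blood sums move with species as several of the genes below do, and their part in those results was not tested. Of 17 exocrine pancreas genes 2 were found, with 10.1 to 636 TPM over the livers. Of these, *cpb1* held 10.1 to 634 TPM, and *ptf1a* was at 0 in at least 1 liver. RL liver replicate 2 had the lowest hepatocyte sum of all livers, at 6661 TPM, and the highest exocrine pancreas sum, at 636 TPM. RL replicate 3 had 13158 and 234 TPM. Of 10 endothelial genes 4 were found, with 10.3 to 39.8 TPM over the livers. Of 10 stellate and fibroblast genes 5 were found, with 2.48 to 15.5 TPM. Of 20 skeletal muscle genes 4 were found, with 1469 to 3265 TPM in muscles. In livers their sum was 56.0 TPM in DL replicate 2 and at most 3.04 TPM in any other. The part of this in the values of DL replicate 2 was not tested. MZ liver replicate 1 stood apart. Its 100 most abundant genes held 80.3% of its TPM, against 57.3% to 75.4% in the other livers, and 10111 genes reached 1 TPM in it, against 12059 to 13933.

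Between species, livers were compared in a single limma fit of the 11 libraries, in which 16613 genes and 17 of the 18 members (not *vwf*) had at least 1 TPM in at least 2 livers. At an adjusted p under 0.01, 5 of the 17 were called in 1 or more of the 6 species pairs, beside 11.8% of all genes tested. These were *c8g* and *serpind1*, higher in DL than in MZ, and *fgb*, *fgg* and *serpinc1*, lower in RL than in PG. The background was 4.56% of genes called for DL over MZ and 4.05% for RL over PG. None of the 17 was called for DL over RL (background 0.795%), DL over PG (8.40%), RL over MZ (1.87%) or PG over MZ (1.37%). At an unadjusted p under 0.05 these pairs had 10, 7, 3 and 6 members, and 12.4%, 36.9%, 21.5% and 22.0% of all genes. A fit of each pair alone called none of the 5.

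**Figure D3:**
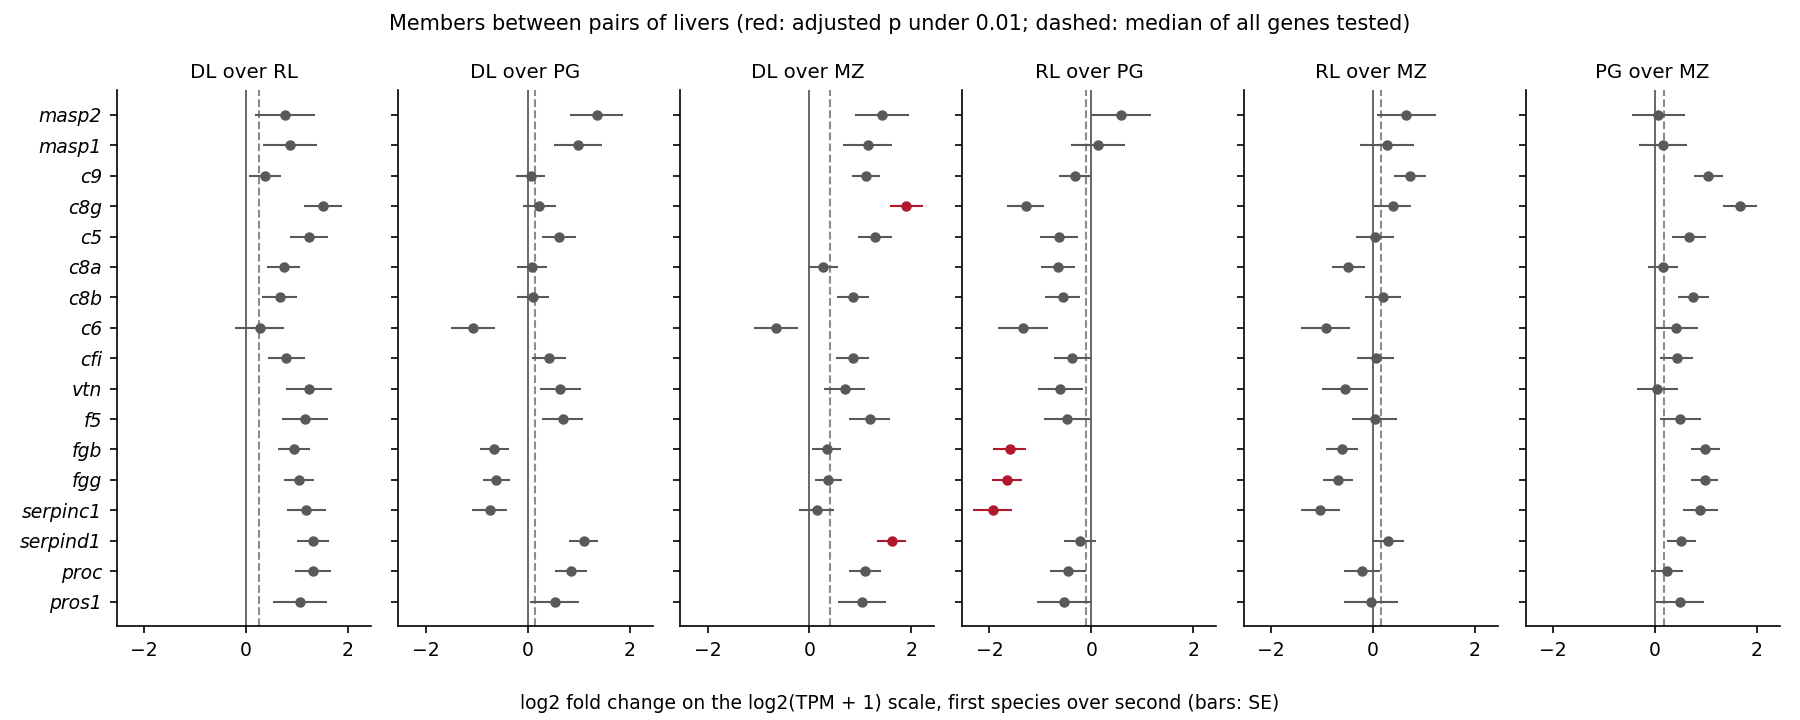
Log2 fold changes of 17 genes on the log2(TPM + 1) scale in the 6 pairs of livers, first species over second, with standard errors as bars. Red points passed an adjusted p under 0.01 and dashed lines are the medians of all genes tested. DL over RL and PG over MZ have all 17 points above 0 as deposited (15 and 10 after quantile normalisation), and RL over PG has 15 below 0 (14 after it).

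Fold changes of the group were mostly positive in the 3 pairs with DL on top. The median over the 17 members was 1.05 on the log2 scale for DL over RL and 1.03 for DL over MZ, where the medians of all genes tested were 0.25 and 0.40. For DL over PG the members' median was 0.42, against 0.14 for all genes. It was -0.56 for RL over PG, against -0.10, 0.03 for RL over MZ, against 0.15, and 0.50 for PG over MZ, against 0.17. The medians of all genes thus lay off 0 in every pair, and quantile normalisation, which gives each library the same distribution, brought all of them to 0.05 or closer to 0 after rounding. After it the members' medians were 0.68 for DL over RL, 0.34 for DL over PG, 0.52 for DL over MZ, -0.15 for RL over PG, -0.15 for RL over MZ and 0.15 for PG over MZ. The sign for RL over MZ thus turned with the scaling. Members with a positive fold change numbered 17, 13, 16, 2, 9 and 17 of 17 in these pairs as deposited and 15, 10, 13, 3, 7 and 10 after quantile normalisation. The share of all genes with a positive fold change was not counted.

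The highest species mean belonged to DL for 13 of the 17 genes and to PG for the other 4, *c6*, *fgb*, *fgg* and *serpinc1*. The lowest mean was that of MZ for 10 genes and that of RL for 7. The share of all genes with their highest or lowest mean in each species was not counted. As deposited, the medians of all genes were also positive for DL over RL, PG and MZ (0.25, 0.14 and 0.40). After quantile normalisation DL had the highest mean for 10 genes, PG for 5 and MZ for 2, and MZ the lowest for 5. Without MZ liver replicate 1, MZ had the lowest mean for 6 genes and RL for 10. The ratio of the highest to the lowest species mean lay between 1.67 for *c8a* and 3.74 for *serpinc1*, with a median of 2.54.

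All 3 DL livers lay above all 3 MZ livers for 11 of the 17 genes, beside 27.7% of all genes tested. These were *masp1*, *masp2*, *c5*, *c8b*, *c8g*, *c9*, *cfi*, *f5*, *serpind1*, *proc* and *pros1*. After quantile normalisation 8 of the 17 did so, beside 21.1% of all genes, with *masp1*, *masp2* and *c8b* no longer among them. Without MZ liver replicate 1 it was again 11 of the 17, the same genes, beside 28.5% of all genes. Leaving out a liver can only keep or add genes by this criterion, so the count could not have fallen and is no check. Against PG, all 3 DL livers were above for *masp2*, *serpind1* and *proc*, 3 of 17 beside 26.2% of all genes.

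Among the genes that start complement, *masp2* encodes the lectin pathway protease that cuts C4 and C2. Its level was 26.4, 35.7 and 51.5 TPM in DL livers, 11.04 and 39.3 TPM in RL livers, 6.63, 20.6 and 18.1 TPM in PG livers and 14.2, 10.1 and 15.2 TPM in MZ livers. DL livers stood above all PG and MZ livers, and the 2 RL livers lay far apart. The log2 fold change was 1.42 (SE 0.52, adjusted p 0.0832) for DL over MZ and 1.36 (SE 0.52, adjusted p 0.0845) for DL over PG. The gene *masp1*, whose protein activates MASP2, had means of 24.3 TPM in DL, 11.9 TPM in RL, 11.7 TPM in PG and 10.2 TPM in MZ, and a single DL liver at 39.2 TPM stood above all the others, which reached at most 18.1 TPM.

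The terminal genes are those of the membrane attack complex. C5 is cut to start it, C6, C7 (gene not found here) and the 3 chains of C8 join, and copies of C9 close the pore. The gene *c8g* encodes the gamma chain of C8, a lipocalin that is bound to the alpha chain. Its level was 1253, 787 and 1164 TPM in DL livers, 343 and 391 TPM in RL livers, 873, 719 and 1142 TPM in PG livers and 206, 270.5 and 395 TPM in MZ livers. DL and PG livers overlapped with each other and lay above every RL and MZ liver. *c8g* was higher in DL than in MZ livers (log2 fold change 1.90, SE 0.33, adjusted p 0.00425), with a ratio of means of 3.68. The same gene had a log2 fold change of 1.67 (SE 0.33, adjusted p 0.0145) for PG over MZ, 1.51 (SE 0.36, adjusted p 0.0643) for DL over RL and -1.29 (SE 0.36, adjusted p 0.0390) for RL over PG, all short of the threshold. Leaving out MZ liver replicate 1 gave 1.68 and an adjusted p of 0.0131 for DL over MZ, and the call was also lost without MZ replicate 2 (adjusted p 0.0193), DL replicate 1 (0.0151) or DL replicate 3 (0.0184).

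No pair was called for the alpha and beta chains of C8. The gene *c8a* averaged 330.05 ± 59.5 TPM in DL, 197 ± 45.04 TPM in RL, 307 ± 14.2 TPM in PG and 277 ± 60.3 TPM in MZ. The gene *c8b* averaged 348 ± 69.0 TPM in DL, 221 ± 66.3 TPM in RL, 319.9 ± 14.5 TPM in PG and 192 ± 42.4 TPM in MZ (SD, n = 3, 2, 3 and 3). A ratio of 2 genes within a liver does not depend on the scaling of that liver, so ratios were taken, a choice made after these values were seen and therefore given with no test. There were 3.21 ± 0.193 *c8g* transcripts for each *c8a* transcript in DL, 1.89 ± 0.260 in RL, 2.95 ± 0.555 in PG and 1.03 ± 0.123 in MZ. MZ livers ranged from 0.903 to 1.15, and the livers of other species from 1.70 to 3.54. For *c8b* over *c8a* the MZ livers had 0.650 to 0.758, against 1.03 to 1.17 in the 8 other livers. MZ thus stood apart from the other 3 species in both ratios to *c8a*, which share that gene and are not separate signs. The ratio of *c8g* to *c8b* did not set MZ apart from RL. MZ replicate 3 had more *c8g* (395 TPM) and less *c8b* (233 TPM) than RL replicate 3 (391 and 268 TPM). Reads of every species were assigned to MZ transcripts, and the part of this in the ratios was not tested.

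The last component, *c9*, had 904, 1111 and 1237 TPM in DL livers, 734 and 928 TPM in RL livers, 804, 1133 and 1202 TPM in PG livers and 465, 411 and 646 TPM in MZ livers. The 3 MZ livers were the lowest of the 11, with no overlap. The log2 fold change was 1.11 (SE 0.28, adjusted p 0.0249) for DL over MZ and 1.05 (SE 0.28, adjusted p 0.0547) for PG over MZ. The gene *c5* averaged 602 ± 210 TPM in DL, 245 ± 48.4 TPM in RL, 382 ± 85.9 TPM in PG and 237 ± 30.4 TPM in MZ, with a log2 fold change of 1.29 (SE 0.33, adjusted p 0.0260) for DL over MZ. The gene *c6* had its highest mean in PG, at 6.31 ± 1.93 TPM in DL, 5.07 ± 1.93 TPM in RL, 14.8 ± 6.32 TPM in PG and 11.1 ± 4.99 TPM in MZ. PG livers had 10.1 TPM or more of *c6* and all DL and RL livers 8.44 TPM or less, and no pair was called (RL over PG -1.34, SE 0.48, adjusted p 0.0854).

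Complement factor I, the protease that inactivates C3b and C4b, is encoded by *cfi*. Its level was 687, 539.8 and 808 TPM in DL livers, 288 and 516 TPM in RL livers, 359, 604 and 576 TPM in PG livers and 333, 370.2 and 415 TPM in MZ livers. DL livers lay above all RL and MZ livers and overlapped with PG, and the log2 fold change for DL over MZ was 0.85 (SE 0.33, adjusted p 0.0958). Vitronectin keeps the terminal complex out of the membranes of the host. Its gene *vtn* averaged 102 ± 19.8 TPM in DL, 42.1 ± 7.07 TPM in RL, 67.1 ± 22.97 TPM in PG and 65.5 ± 27.8 TPM in MZ, with no pair called.

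Factor V, the cofactor with which factor Xa makes thrombin, is encoded by *f5*. Its level was 329.9, 215 and 441 TPM in DL livers, 109 and 181 TPM in RL livers, 148, 235 and 216 TPM in PG livers and 91.8, 147 and 194 TPM in MZ livers. The lowest DL liver stood above every RL and MZ liver and within the PG range. No liver pair was called for *f5*, with 1.19 (SE 0.40, adjusted p 0.0646) for DL over MZ.

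Fibrinogen is built from alpha, beta and gamma chains, of which *fgb* and *fgg* encode the beta and gamma chains. The level of *fgb* was 9284, 7418 and 7508 TPM in DL livers, 2792 and 6226 TPM in RL livers, 13504, 12374 and 12065 TPM in PG livers and 4746, 8004 and 6765 TPM in MZ livers. PG livers were the highest 3 of the 11, and the 2 RL livers differed from each other by more than the DL livers did. *fgb* was lower in RL than in PG livers (log2 fold change -1.60, SE 0.32, adjusted p 0.00957), just inside the threshold. The level of *fgg* was 10219, 6970.04 and 7057 TPM in DL livers, 3179.7 and 4663 TPM in RL livers, 12567, 14614 and 9829 TPM in PG livers and 4574, 7686 and 6656 TPM in MZ livers. RL and PG livers did not overlap, and *fgg* was lower in RL (log2 fold change -1.66, SE 0.29, adjusted p 0.00525). The calls of *fgb* and *fgg* were lost with no filter on low values, after quantile normalisation and with no variance trend. With 0.1 or 0.5 TPM added in place of 1 TPM, *fgb* alone was lost, as with rescaling without the 100 most abundant genes. The chains kept near parity in every liver, with 0.847 to 1.34 *fgb* transcripts for each *fgg* transcript and a mean of 1.04 ± 0.143 (SD, n = 11).

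Antithrombin, the main inhibitor of thrombin and factor Xa, is encoded by *serpinc1*. Its level was 1006, 637 and 1056 TPM in DL livers, 315 and 475 TPM in RL livers, 1509.7, 1389 and 1532 TPM in PG livers and 512, 857 and 1146 TPM in MZ livers. Both RL livers were below all other livers and all PG livers above. *serpinc1* was lower in RL than in PG livers (log2 fold change -1.93, SE 0.38, adjusted p 0.00896), and the RL mean was 0.267 of the PG mean. Without RL liver replicate 2, the lower of the 2, the log2 fold changes of *fgb*, *fgg* and *serpinc1* were -1.02, -1.38 and -1.63. The calls were lost, as were those of *fgg* and *serpinc1* without RL replicate 3. Such fits hold a single RL liver, so the loss does not show which liver the calls rest on. Replicate 2 also had the lowest hepatocyte sum of the livers, and the part of this in the calls was not tested. Each of PG replicates 1 and 2 decided all 3 calls (adjusted p between 0.0173 and 0.0294 without 1 of them). Without any of the DL livers, MZ replicate 2 or 3 or PG replicate 3, *fgb* was lost too (adjusted p between 0.0111 and 0.0212), as was *serpinc1* without DL replicate 1 or 3, MZ replicate 2 or PG replicate 3 (adjusted p between 0.0107 and 0.0231).

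Heparin cofactor II, a second inhibitor of thrombin, is encoded by *serpind1*. Its level was 1347, 1262 and 1631 TPM in DL livers, 529.6 and 595 TPM in RL livers, 487, 727 and 797 TPM in PG livers and 358, 506 and 526 TPM in MZ livers. The 3 DL livers stood above all 8 others, which ranged from 358 to 797 TPM. *serpind1* was higher in DL than in MZ livers (log2 fold change 1.62, SE 0.28, adjusted p 0.00473), a ratio of means of 3.05. For DL over PG the log2 fold change was 1.10 (SE 0.28, adjusted p 0.0194) as deposited and 1.07 (SE 0.21, adjusted p 0.00545) after quantile normalisation, which passed the threshold, and for DL over RL it was 1.32 (SE 0.32, adjusted p 0.0643) as deposited. The call over MZ was lost when any DL or MZ liver was left out, with adjusted p between 0.0104 and 0.0212 and 0.0139 without MZ liver replicate 1.

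**Figure D4:**
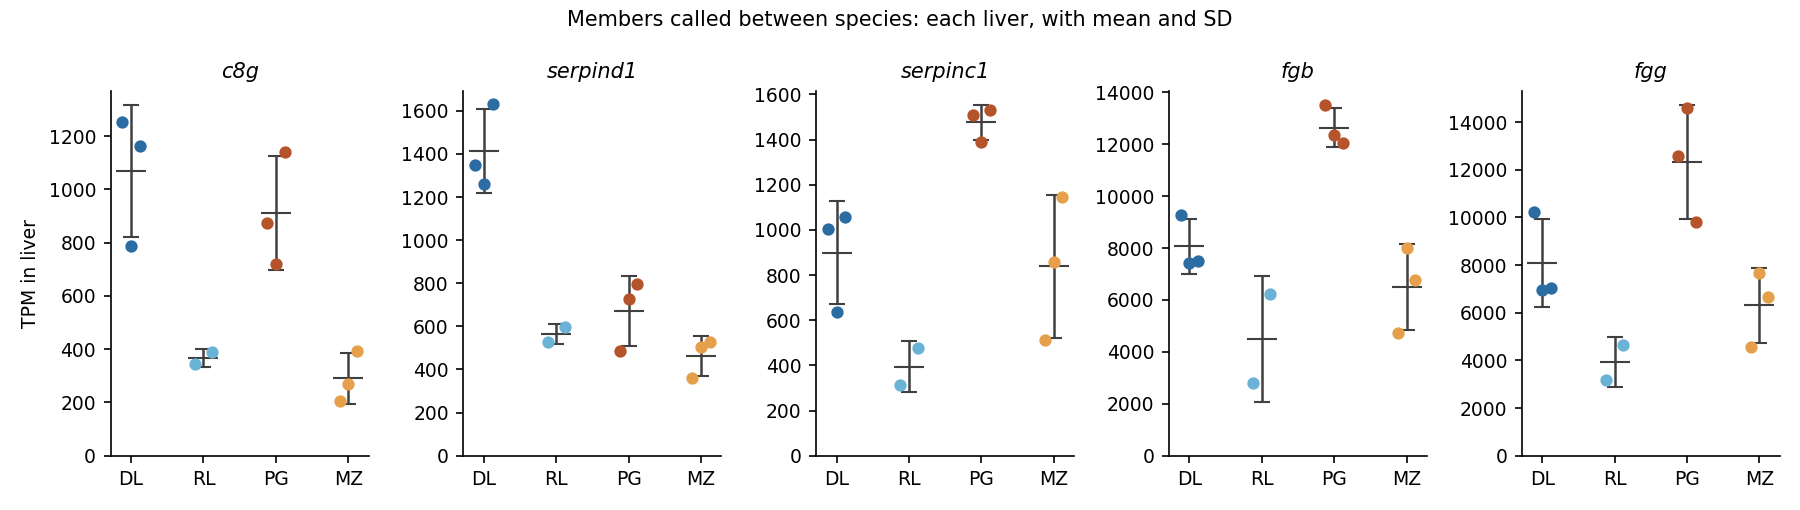
TPM in each liver of the 5 genes called between species, by species, on linear axes that start at 0. Points are livers, and the lines mark mean and SD. *serpind1* is apart in DL at 1262 TPM or more, *c8g* is high in DL and PG, and *serpinc1*, *fgb* and *fgg* are highest in PG and lowest in RL by species mean.

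These inhibitors of thrombin ordered the species in different ways. For each *serpinc1* transcript there were 1.62 ± 0.329 *serpind1* transcripts in DL, 1.47 ± 0.304 in RL, 0.455 ± 0.115 in PG and 0.583 ± 0.121 in MZ. The 5 livers of the open-water species ranged from 1.25 to 1.98 and the 6 livers of the rock dwellers from 0.323 to 0.700, without overlap. This ratio too was picked after its values were seen and has no test.

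**Figure D5:**
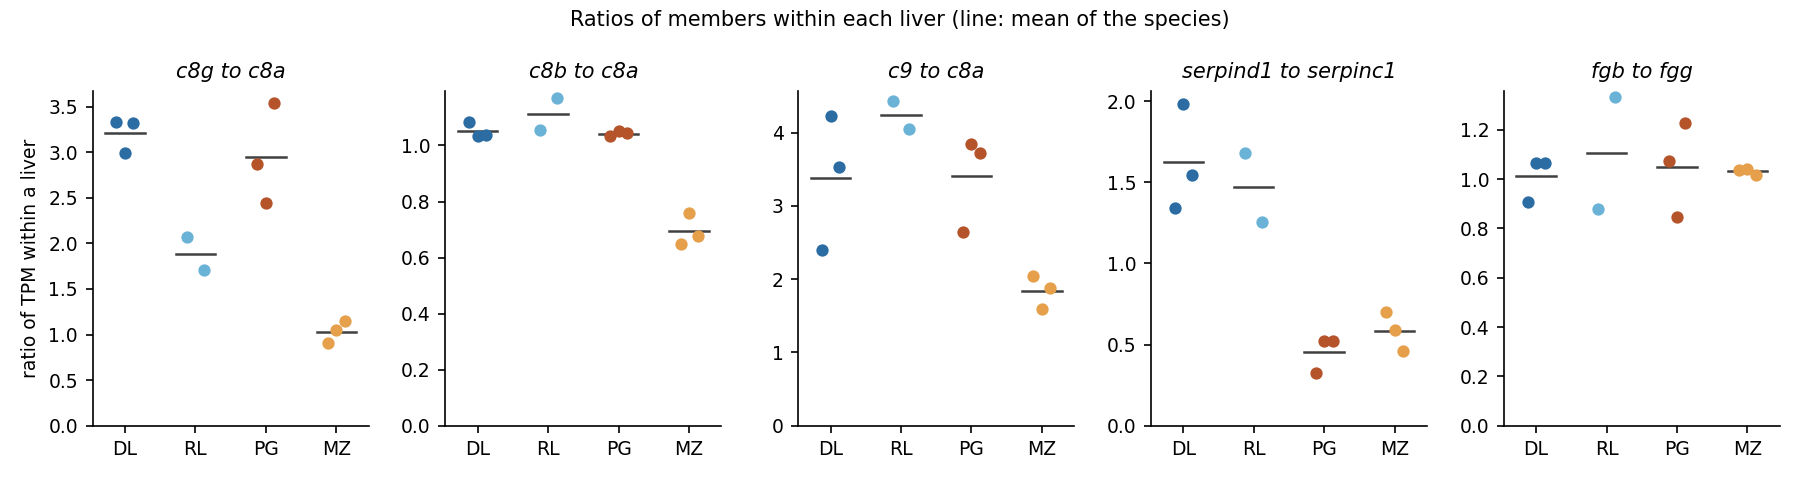
Ratios of TPM of pairs of the genes within each of the 11 livers, by species, on linear axes from 0. Points are livers and lines are species means. MZ livers are lowest for *c8g*, *c8b* and *c9* over *c8a*, DL and RL livers are above 1.2 and PG and MZ livers at or below 0.700 for *serpind1* over *serpinc1*, and *fgb* over *fgg* overlaps between all species.

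Protein C, which once activated cuts factors Va and VIIIa, is encoded by *proc*, and its cofactor protein S by *pros1*. The gene *proc* averaged 386 ± 93.5 TPM in DL, 152 ± 5.81 TPM in RL, 211 ± 43.9 TPM in PG and 179 ± 30.6 TPM in MZ. Every DL liver, at 281 TPM or more, lay above all other livers, which reached at most 241 TPM. These values were added after they were seen, and no pair was called for *proc*. The share of all genes with the DL livers apart in this way was not counted. The log2 fold change of *proc* was 1.09 (SE 0.32, adjusted p 0.0387) for DL over MZ, 1.31 (SE 0.35, adjusted p 0.103) for DL over RL and 0.86 (SE 0.32, adjusted p 0.0728) for DL over PG. The gene *pros1* averaged 79.8 ± 10.4 TPM in DL, 43.2 ± 30.8 TPM in RL, 56.8 ± 19.8 TPM in PG and 41.1 ± 16.4 TPM in MZ, with no pair called.

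Muscles served as the background tissue. In the 12 muscles 18101 genes and 9 of the 18 members passed the filter on low values, and 2 members, *f5* and *vwf*, were called in at least 1 of the 6 pairs, beside 17.7% of all genes tested. Both passed the filter only through the muscles in which they were high, so their calls and this count are given as a description and support nothing. *f5* was at 0.0395, 0.237 and 0.0769 TPM in DL muscles, 0.109, 0.0827 and 0.0784 TPM in RL muscles, 0.989, 3.32 and 6.39 TPM in PG muscles and 1.46, 1.10 and 3.19 TPM in MZ muscles. All 6 muscles of the open-water species lay below all 6 of the rock dwellers. The log2 fold change was -1.84 (SE 0.41, adjusted p 0.00836) for DL over PG and -1.87 (SE 0.41, adjusted p 0.00715) for RL over PG, and these values understate the ratio because 1 TPM was added. No DL or RL muscle reached 1 TPM of *f5*. *vwf* averaged 0.507 TPM in DL muscles, 0.282 TPM in RL muscles, 1.39 TPM in PG muscles and 0.672 TPM in MZ muscles, and was called lower in RL than in PG (log2 fold change -0.90, SE 0.21, adjusted p 0.00922), with 1 TPM reached in PG muscles alone. These muscle levels of *f5* and *vwf* are at most 6.39 TPM.

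Whether the differences among the 4 species differ between liver and muscle was tested as an interaction over the 23 libraries. It was called for 2 of the 18 genes, beside 7.88% of all genes tested, *c8g* (adjusted p 0.00199) and *f5* (adjusted p 0.00940). For *c8g* 8 of the 12 muscles were listed at 0 TPM and the highest held 1.03 TPM, so the test restates the liver differences and shows nothing about muscle. For *f5* the species order differed between tissues, with DL highest in liver and PG highest in muscle. No liver pair was called for *f5*, and its DL and RL muscles lay under 1 TPM. The *f5* interaction thus rests in part on the muscle difference given above as a description, and is itself given as a description. With the fish as a block, since liver and muscle of a number come from the same animal, neither was called (adjusted p 0.0215 for *c8g* and 0.0118 for *f5*). For *vwf* the interaction had an adjusted p of 0.200.

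Other genes of these pathways were followed through a list of 68 that are not members, of which 19 were found and 17 passed the filter in liver. In the 6 pairs 2 of the 17 were called, a share no different from the 11.8% of all genes tested, so the count is no result about the list. The gene *colec11*, whose protein is a collectin that binds sugars and brings in the MASP proteases, had 15.7, 15.9 and 21.3 TPM in DL livers, 10.3 and 9.81 TPM in RL livers, 2.94, 0.796 and 2.91 TPM in PG livers and 4.24, 8.02 and 12.9 TPM in MZ livers. DL livers lay above and PG livers below all others, and DL over PG was called at 2.61 on the log2 scale (SE 0.42, adjusted p 0.00198). The gene *f2r*, which encodes a thrombin receptor of platelets and other cells, had 1.38, 0.0772 and 0.221 TPM in DL livers, 0.225 and 0.933 TPM in RL livers, 9.12, 10.3 and 13.03 TPM in PG livers and 3.01, 3.99 and 2.98 TPM in MZ livers. The species of open water lay below those of the rocks without overlap, and *f2r* was lower in DL than in PG (log2 fold change -3.00, SE 0.34, adjusted p 0.000274) and lower in RL than in PG (-2.93, SE 0.38, adjusted p 0.00100). It passed the filter through the PG and MZ livers, and of the DL and RL livers a single DL liver reached 1 TPM, so these calls are given as a description. The blood and immune sum given above, in which *cd74* reached the highest values, was also lower in all DL and RL livers than in all PG and MZ livers. Its part in the *f2r* difference was not tested.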

How the data were processed

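Total RNA libraries were trimmed and assigned to the *M. zebra* transcriptome (UMD2a) with kallisto by the authors, who deposited TPM for each gene and library. The tables also hold the authors' species means, which were not used. Columns were matched to samples through the specimen codes of the study's sample sheet. Genes that reached 1 TPM in 2 or more libraries entered limma 3.58.1 (lmFit, eBayes with trend) in R 4.3.3 on log2(TPM + 1), 2-sided. The 11 livers entered a single fit with species as the only term. The 12 muscles entered another, and all 23 libraries a further fit with 8 groups of species and tissue. Adjusted p-values are Benjamini-Hochberg values over all genes of a contrast, and those under 0.01 were called. Fold changes on this scale understate those of low genes.

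Members, marker lists and tests were chosen with earlier results of these data known. All members found were named, with values in every liver for those called between livers and for the highest of each role. Values of *proc*, *c5* and the ratios between genes were added after they were seen. Liver and muscle of 11 fish come from the same animal, and their deviations from the group means correlated between 0.0920 and 0.160, above 0.1 in 10 of 11. The fits were tested on simulated data. Of 200 genes changed by a log2 fold change of 3, 73.5% were recovered for DL over PG livers, with 1 false call. No smaller change was simulated, and all members differed by less between livers, so this does not show how many such differences were missed. The simulated noise was independent between genes and held no shift of whole libraries, so the 1 false call gives no rate for these data.

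The alternatives were pseudocounts of 0.1 and 0.5, no filter, a mean of at least 5 TPM, quantile normalisation, rescaling without the 100 most abundant genes, no variance trend, an adjusted p under 0.05, each pair alone, a difference of at least 50 TPM, the fish as a block and each library left out. Figures were drawn with matplotlib 3.10.9 in Python 3.11.15. The deposited lists of differentially methylated regions were not used here, since gene positions of the assembly they refer to were not at hand, so the planned count of members near such regions was not made. No sequences are printed for the same reason.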

Additional observations from a re-analysis of the deposited data

Results flagged for a closer look

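For *c8g* and *f5* the differences among species differed between liver and muscle, by a test of the interaction itself. The adjusted p was 0.00199 for *c8g*, whose means were 1068 TPM in DL, 367 TPM in RL, 911 TPM in PG and 290.5 TPM in MZ livers, against at most 1.03 TPM in any muscle and 0 TPM in 8 of 12. The muscle side is thus fixed near 0, and the test restates the liver differences. The adjusted p was 0.00940 for *f5*, whose means were 329 TPM in DL, 145 TPM in RL, 199.6 TPM in PG and 144 TPM in MZ livers, against 0.118, 0.0901, 3.57 and 1.92 TPM in the muscles of the same species. No DL or RL muscle reached 1 TPM of *f5*. The *f5* interaction thus rests in part on muscle values under that level and is given as a description. With the fish as a block neither gene passed the threshold.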

How the results depend on the processing

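Counts of members called between livers are small and moved with most settings, while no fold change of the 5 called genes turned its sign. Of 105 values for these 5 under the alternatives 59 kept the call and 46 lost it, 31 of them by leaving out a library. Members called in at least 1 of the 6 liver pairs numbered 5 in the main analysis, 2 with no filter on low values, 3 with quantile normalisation or no variance trend, 8 at an adjusted p under 0.05 and 0 in fits of a pair alone, and 1 to 3 when a liver was left out. For RL over PG the 3 calls became 0 with no filter, 1 with quantile normalisation, 1 with no variance trend and 0 in the pair alone, and 0 to 3 without a liver. For DL over MZ the 2 calls became 5 at 0.05 and 0 in the pair alone, and 0 to 2 without a liver. DL over PG had 1 call, *serpind1*, with quantile normalisation, with rescaling and at 0.05. Of 16613 genes tested, 1396 were called for this pair as deposited, 2116 after quantile normalisation and 2059 with rescaling. That 1 call is thus no result about the members. Shares of all genes under the other settings are not given here. The counts of this section therefore describe how the calls move and show nothing about the members against other genes. PG over MZ had 1, *c8g* at 0.05, and 1 with a mean of at least 5 TPM. The 2 members called between muscles became 1 with no filter or quantile normalisation, 0 with a mean of at least 5 TPM, and 0 to 1 without a muscle. The 2 interaction calls became 1 with a pseudocount of 0.1 or rescaling, 4 with quantile normalisation, 6 at 0.05, 0 with the fish as a replicate block, and 1 to 4 without a library. The 16 members higher in liver stayed 16 in every species with the fish as a block and in every fit without a library. Several of them passed the filter only through the livers, where they are high, so this count is no check. Among all genes called for DL over MZ, 73.7% were higher in DL as deposited and 47.9% after quantile normalisation. The cause of these shifts was not tested. TPM keeps no depth, and the read counts that the study lists for its RNA libraries were not used here. What sequencing depth limits was thus not tested.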
